A study of Drosophila melanogaster with 3 samples.

Results

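Deep intronic binding regions of Smox are described here: reproducible peaks on the autosomes whose summit lay inside a gene, in no annotated exon, and more than 5000 bp from the nearest transcription start site (TSS) of any gene. Members were chosen by position alone, and 827 of the 6622 thresholded peaks met the rule. They made up 15.8% of the 5233 autosomal thresholded peaks, with a 95% Wilson interval of 14.8% to 16.8%. The study applied chromatin immunoprecipitation sequencing (ChIP-seq) with an anti-GFP antibody to whole Drosophila melanogaster white prepupae, the brief stage at which the puparium forms. The animals came from a stably transgenic line in which GFP was fused to the C terminus of Smox, and both sexes were pooled. The data comprised 1 group of 3 biological replicates with no second condition, so a replicate is the unit of error and no treatment was contrasted. Tissues of the whole animal were mixed in each sample, so strong binding in a few cells and weak binding in many cells cannot be told apart. The labels do not give the promoter that drives the fusion or whether untagged Smox is also present. The lists held ranked regions without read counts, so sequencing depth was unknown.

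Smox is the fly SMAD protein of the Activin branch of TGF-beta signalling. It is phosphorylated by the type I receptor babo, joins the common SMAD Medea and enters the nucleus, where SMAD proteins bind short DNA elements together with other transcription factors. In prepupae this branch is known for its part in neuronal remodelling and growth, alongside the steroid hormone ecdysone. Long fly introns are known to hold many enhancers, the regulatory elements that act over a distance on a promoter. In the mapping below, a host is the gene whose body holds a summit, which need not be the gene a regulatory element acts on.

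The summits of the 10 strongest replicated members on the arms whose sequence is shown are given first, so that the base composition and the short elements discussed later can be seen. Each is read from the Release 6 (dm6) plus strand and reaches 75 bp either side of the summit. Capitals mark TATAAA, the homeodomain core TAATTA and the SMAD box GTCT, each on either strand, and introns are numbered in the longest transcript of the gene.
The first lies in intron 3 of Eip75B at chr3L:18011832-18011982 and has 35.8% GC, with no marked element.
Eip75B: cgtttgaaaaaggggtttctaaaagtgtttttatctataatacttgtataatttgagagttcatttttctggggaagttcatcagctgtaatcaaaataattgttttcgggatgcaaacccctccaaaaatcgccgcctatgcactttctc
The next lies in intron 1 of CG32486 at chr3L:3060729-3060879, has 46.4% GC and holds 1 TATAAA match.
CG32486: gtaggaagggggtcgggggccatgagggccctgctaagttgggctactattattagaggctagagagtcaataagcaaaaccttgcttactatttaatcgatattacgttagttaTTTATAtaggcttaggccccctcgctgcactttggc
Intron 1 of Su(Tpl) holds the summit at chr3L:19903217-19903367, with 30.5% GC.
Su(Tpl): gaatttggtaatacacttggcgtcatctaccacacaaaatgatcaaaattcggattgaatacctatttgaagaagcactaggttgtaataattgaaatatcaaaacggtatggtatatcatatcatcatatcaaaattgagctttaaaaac
Intron 4 of CG42238 holds the summit at chr2L:21009458-21009608, with 27.2% GC and 1 SMAD box.
CG42238: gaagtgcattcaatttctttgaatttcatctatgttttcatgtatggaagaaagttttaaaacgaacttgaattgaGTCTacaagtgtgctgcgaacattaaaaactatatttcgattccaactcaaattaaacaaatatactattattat
Intron 2 of gpp holds the summit at chr3R:6424048-6424198, with 35.8% GC and 2 SMAD boxes.
gpp: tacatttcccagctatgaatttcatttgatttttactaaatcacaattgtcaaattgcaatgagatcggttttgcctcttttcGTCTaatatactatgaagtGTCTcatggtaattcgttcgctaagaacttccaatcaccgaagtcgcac
Intron 3 of Ptp61F holds the summit at chr3L:1443052-1443202, with 35.1% GC.
Ptp61F: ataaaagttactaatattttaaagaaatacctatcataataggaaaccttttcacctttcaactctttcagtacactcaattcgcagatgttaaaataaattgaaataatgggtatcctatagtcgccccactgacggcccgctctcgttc
Intron 5 of Dad holds the summit at chr3R:17065089-17065239, with 23.8% GC and none of the marked elements.
Dad: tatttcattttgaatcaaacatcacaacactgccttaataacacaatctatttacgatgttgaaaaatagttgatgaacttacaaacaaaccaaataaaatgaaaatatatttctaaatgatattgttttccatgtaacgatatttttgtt
Intron 1 of Eip74EF holds the summit at chr3L:17611433-17611583, with 22.5% GC and 1 TAATTA.
Eip74EF: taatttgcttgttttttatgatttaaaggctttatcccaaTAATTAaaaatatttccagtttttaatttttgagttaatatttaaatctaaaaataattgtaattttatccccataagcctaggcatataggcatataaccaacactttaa
Intron 2 of tai holds the summit at chr2L:9211322-9211472, with 29.1% GC and 1 TAATTA.
tai: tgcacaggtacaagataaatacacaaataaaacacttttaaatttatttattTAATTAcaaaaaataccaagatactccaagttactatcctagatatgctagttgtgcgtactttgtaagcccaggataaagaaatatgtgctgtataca
Intron 1 of simj holds the summit at chr3L:10682935-10683085, with 25.2% GC and 2 TAATTA.
simj: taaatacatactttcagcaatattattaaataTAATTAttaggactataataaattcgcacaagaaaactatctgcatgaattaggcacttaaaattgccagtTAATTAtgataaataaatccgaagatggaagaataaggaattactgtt
Only gpp and CG42238 among these 10 hold the SMAD box within the window, while all but CG32486 are poorer in GC than deep intronic sequence as a whole, which has 40.2% GC.

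The 2 strongest members lay in Eip75B and CG32486, well above the rest of the list. Strength is given as a rank by the authors' score, 1 being the strongest of 30000 regions in a list. The top member, in Eip75B, which encodes an ecdysone-induced nuclear receptor, ranked 13 in the pooled list and 21, 12 and 15 in replicates 1, 2 and 3. It lay 12086 bp from the nearest TSS, itself one of Eip75B. The member in CG32486 ranked 19 in the pooled list and 19, 30 and 14 in the replicates. The next member ranked 102. It lay in Su(Tpl), which encodes the elongation factor ELL, and ranked 100, 114 and 95 in the replicates. CG42238 followed with ranks of 182, 116 and 140. The peak in gpp, the fly Dot1 histone methyltransferase gene, had a pooled rank of 150, the next rank down in replicate 1, and ranks of 174 and 155 in replicates 2 and 3. For every one of these the replicate ranks stayed within a narrow part of the list.

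After gpp came Ptp61F, a tyrosine phosphatase gene, with ranks of 175, 160 and 158, and sbb, a corepressor gene, at 233, 152 and 147. Then came 2 genes of the TGF-beta and BMP list. The peak in shn, whose zinc finger protein works with SMADs in repression by BMP signals, had ranks of 245, 155 and 207 and lay 5578 bp from the nearest TSS. The peak in Dad, which encodes the inhibitory SMAD of the BMP branch, had ranks of 225, 249 and 171. The TSS nearest to it, at 7511 bp, belongs to the neighbouring gene Ns1, and the nearest of Dad itself lies at 10267 bp.

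**Figure D1:**
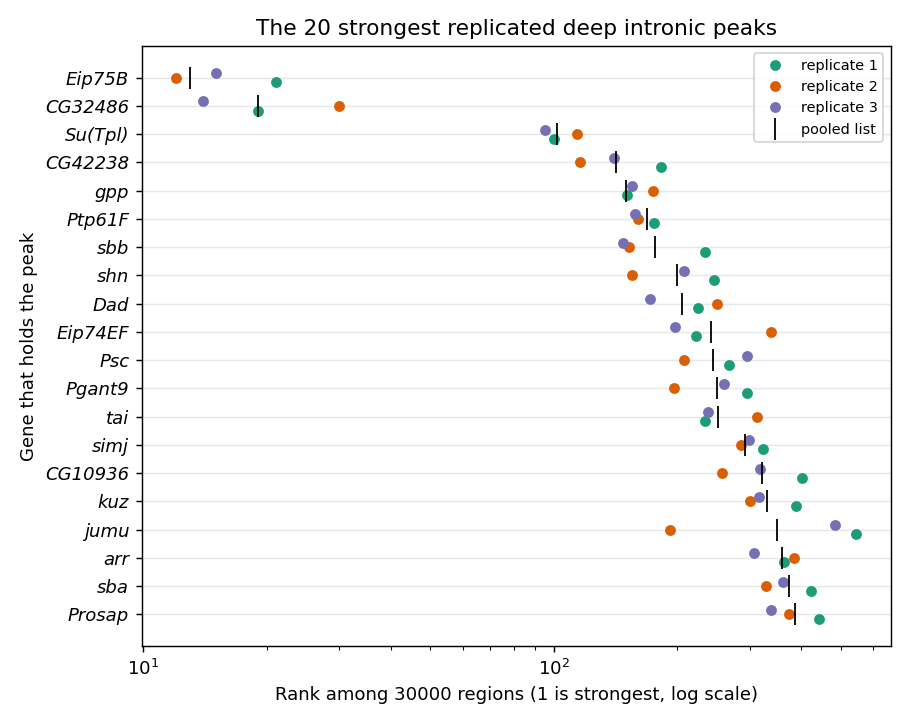
Rank of the 20 strongest deep intronic peaks covered in all 3 replicate lists (log axis, 1 is strongest), by the gene that holds the peak. Points are replicates and black ticks the pooled list; the peaks in Eip75B and CG32486 sit at ranks 12 to 30 in every replicate, apart from the others.

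The rest of the 20 strongest replicated members added further regulators. Eip74EF, an ecdysone-induced ETS factor gene, had ranks of 222, 338 and 197. Psc, which encodes a subunit of Polycomb repressive complex 1, had 267, 207 and 296. For tai, the gene of an ecdysone receptor coactivator, the ranks were 234, 313 and 238. The peak in simj, which encodes the p66 subunit of the NuRD complex, ranked 324, 286 and 298. The remaining hosts were Pgant9, CG10936, kuz, jumu, arr, sba and Prosap, with pooled ranks from 250 to 386. Among them, kuz encodes the metalloprotease that cleaves Notch and arr the Wnt coreceptor of the LRP family. The peak in jumu, a forkhead factor gene, varied most by eye in the plot of ranks, at 546, 192 and 483.

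Most members recurred across replicates, but as a class they ranked lower than promoter peaks. The authors had already thresholded these peaks by reproducibility between the same replicates, so recurrence was in part set by that choice. To compare lists of equal length, each replicate list was limited to its strongest 6622 regions, which held 792, 770 and 768 deep intronic summits, or 14.7% ± 0.295 (SD, n = 3) of autosomal summits. Of the 827 members, 568 (68.7%) overlapped a region of all 3 limited lists, 165 of 2 lists, 84 of 1 list and 10 of none. In the unlimited lists, 811 members (98.1%) had an overlapping region in every replicate. That share was 0.539 points above the share of the other autosomal peaks (Fisher's exact test, adjusted p = 0.517). Ranks of the members correlated between replicates with Spearman coefficients of 0.819 (replicates 1 and 2, 815 peaks), 0.830 (1 and 3, 821 peaks) and 0.825 (2 and 3, 813 peaks). These coefficients describe peaks that share libraries and a common selection, and no p was computed.

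The strongest 1656 peaks of the thresholded list held 17.9% of the members, against 26.0% of the other autosomal peaks and 32.3% of the promoter peaks, whose summits lay within 500 bp of a TSS. Both differences passed the two-sided Fisher's exact test, with adjusted p-values of 3.29e-06 and 1.11e-13 (Benjamini-Hochberg over 16 tests). The direction held in each replicate's own list, where the shares were 17.6%, 18.7% and 17.3% for deep intronic regions and 26.1%, 25.8% and 26.0% for the others. The weakest 1656 peaks held 28.9% of the members and 24.2% of the others (Fisher's exact test, adjusted p = 0.0135). The exact tests treat peaks as independent, although peaks of one gene or one overlapping pair are not. Of the members, 99 overlapped another member.

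The share covered in all 3 replicates was 68.7% for members and 72.2% for the other autosomal peaks, a difference that missed the threshold (Fisher's exact test, adjusted p = 0.0701). Against promoter peaks, at 74.2%, the difference passed (Fisher's exact test, adjusted p = 0.0126). At matched ranks the order was reversed in part of the list: at ranks 3312 to 4966, 79.8% of members and 65.1% of promoter peaks were covered in all replicates (Fisher's exact test, adjusted p = 0.000936 over 16 tests within ranges of rank). In the other 3 ranges no difference from promoter peaks passed, and against all other autosomal peaks, at 71.4%, the difference at those ranks missed the threshold (Fisher's exact test, adjusted p = 0.0547). Against distal intergenic peaks, which also lie over 5000 bp from a TSS but between genes, no difference passed in coverage (68.7% and 67.05%, Fisher's exact test, adjusted p = 0.606) or in the share among the strongest 1656 (17.9% and 16.7%, adjusted p = 0.641).

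Down the pooled list the deep intronic share grew while the promoter share shrank. Ranks 1 to 1656 held 11.4% deep intronic summits (Wilson interval 9.82% to 13.3%), and ranks 4967 to 6622 held 18.3% (16.3% to 20.5%). Past the authors' threshold, ranks 25001 to 30000 held 23.9% (22.7% to 25.3%). Promoter summits went from 43.4% to 26.8% and 11.3% over the same ranks. Deep intronic sequence made up 20.8% of the autosomal sequence, and the interval at the bottom of the list lay above this share. These intervals treat regions of 1 pooled list as independent, and no values per replicate were taken for them.

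Per length of sequence, deep introns carried fewer summits than sequence near promoters and more than distal intergenic sequence. Deep intronic sequence spanned 22.9 Mb and held 36.1 thresholded summits per Mb. Introns nearer to a TSS held 69.0, promoters 114, exons 5.70 and distal intergenic sequence 25.4 summits per Mb. The replicate lists gave 34.6, 33.6 and 33.5 summits per Mb for deep introns, against 22.1, 22.99 and 22.5 for distal intergenic sequence. The replicate groups did not overlap, and their ratio was 1.51 ± 0.0547 (SD, n = 3). The exact permutation test over replicates gave p = 0.1 (two-sided), the smallest p that 3 values against 3 allow. That test treats the values as unpaired. Paired by replicate list, the difference was 11.4 ± 1.00 summits per Mb (SD, n = 3), higher for deep introns in 3 of 3 lists (exact sign-flip permutation test, two-sided, p = 0.25, the smallest that 3 pairs allow).

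Density was lower farther from the TSS in both kinds of sequence, and the gap between them was widest in proportion beyond 10 kb. At 5001 to 10000 bp from a TSS the replicate lists held 47.7 ± 2.36 summits per Mb in introns and 41.8 ± 1.34 between genes (SD, n = 3). At 10001 to 20000 bp they held 42.9 ± 1.27 and 24.7 ± 0.474. At 20001 to 40000 bp they held 19.0 ± 0.323 and 11.1 ± 0.592. Beyond 40000 bp only 5 members remained in 4.196 Mb of introns, at 1.19 per Mb, the farthest of them 47649 bp from a TSS in hth. Annotated transposable elements took a larger share of the intergenic sequence in each of these distance classes, for example 13.6% against 8.97% at 10001 to 20000 bp. They held 3 of the 827 summits and 9.45% of deep intronic sequence, and their part in the difference was not tested.

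**Figure D2:**
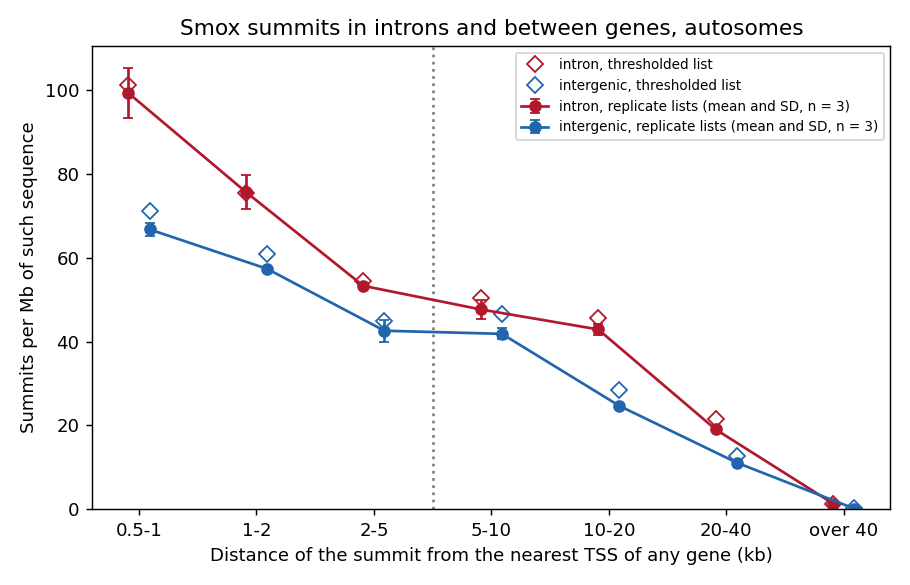
Summits per Mb (linear axis) of intronic and intergenic autosomal sequence by distance from the nearest TSS; filled points with bars are the mean and SD of 3 replicate lists, open diamonds the thresholded list. The dotted line marks 5000 bp; beyond 10 kb the intronic values, 42.9 and then 19.0, lie above the intergenic ones, 24.7 and 11.1.

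Members had a median distance to the nearest TSS of 9430 bp, with quartiles of 6828 and 13771 bp. At the boundary of the rule, the innermost members lay 5003 bp (cv-c), 5005 bp (fz2) and 5007 bp (dachs) from a TSS, with pooled ranks of 612, 4222 and 4432. The nearest peaks left out lay at 4999 bp (tara), 4987 bp (chm) and 4986 bp (CG46339), with ranks of 4167, 1327 and 649. The nearest TSS belonged to the host gene for 463 members (56.0%) and to another gene for the rest. The introns that held members had a median length of 23388 bp.

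First introns held more summits per Mb than later introns. In the longest transcript of the host, 297 of 825 summits (36.0%) lay in the first intron, which made up 20.4% of deep intronic sequence. Replicate lists gave 63.5, 59.5 and 61.4 summits per Mb in first introns and 27.1, 26.9 and 26.2 in later ones. These values did not overlap (exact permutation test, two-sided, p = 0.1, the smallest possible), and paired by list they differed by 34.7 ± 1.96 summits per Mb (SD, n = 3; exact sign-flip permutation test, two-sided, p = 0.25, the smallest possible). First introns lie nearer to a TSS on average, so the densities were also taken by distance. They were 74.1 ± 2.34 and 36.5 ± 2.49 at 5001 to 10000 bp (SD, n = 3). At 10001 to 20000 bp they were 53.9 ± 2.33 and 39.9 ± 2.25, and at 20001 to 40000 bp 32.9 ± 4.07 and 16.8 ± 0.748. The direction was the same in each class, with the smallest gap in the middle one. Along the intron, from 5′ to 3′, the 4 equal parts held 34.7, 38.7, 36.2 and 34.5 summits per Mb, with no marked end.

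Density also varied by chromosome arm. Replicate values were 45.0 ± 0.849 summits per Mb of deep intronic sequence on 2L, 36.4 ± 1.58 on 3L, 30.5 ± 0.410 on 2R and 29.7 ± 0.622 on 3R (SD, n = 3). The replicate values of 2L, 3L and the pair of 2R and 3R did not overlap, while those of 2R and 3R did. Chromosome 4 held no member in 0.259 Mb of such sequence. A single protein-coding gene had 1904.75 kb of deep intronic sequence, and its part in the densities given here was not tested. How well reads map to such long stretches was not tested either.

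Host genes were few and often held several summits. The 827 members lay in 321 genes, 316 of them protein-coding, out of 1393 protein-coding genes with any deep intronic sequence, a background of 22.7%. In the replicate lists 318, 308 and 316 genes were hosts, and 253 of the 321 were hosts in all 3. Of the hosts, 142 held 1 summit, 136 held 2 to 4, and 43 held 5 or more. Those 43 genes carried 311 summits, 37.6% of the members. Hosts had a median of 18.4 kb of deep intronic sequence and the other genes 3.80 kb, so long genes had more room for a summit.

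Tet, which encodes the fly member of the TET dioxygenase family, held the most, with 19 thresholded summits and 17, 21 and 20 in the replicate lists. SKIP, the gene of a Shal potassium channel interacting protein, held 14, with 10, 13 and 11 in the replicates, and 7 of its summits were covered in all 3 replicate lists. With a limit of 10000 bp from a TSS, 9 of them remained. The corepressor gene sbb held 12, with 11, 14 and 13, and counting each peak interval once left 10. Of these 12 sbb summits, 11 formed a run over 19.2 kb with gaps of at most 5000 bp. Snoo, the fly Sno gene, whose protein family binds SMADs and represses their targets, held 12 summits, with 10, 12 and 11 in the replicates. The strongest of them ranked 475 and lay 25816 bp from any TSS and 60545 bp from the nearest TSS of Snoo.

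The other genes among the 10 with the most were tara, fz, jing, heca, ds and hth. The planar polarity receptor gene fz held 11 summits (10 in each replicate) over 71.7 kb of deep intronic sequence. The atypical cadherin gene ds held 9 (9, 8 and 8), and hth, the Meis-type homeodomain gene, 9 (9, 7 and 8), of which 5 were covered in all 3 lists. In jing, of 10 summits, 5 were covered in all 3 lists. In tara the 11 summits (10, 10 and 8) fell on only 16.1 kb, and 7 were left when peaks that overlap a stronger one were dropped, 6 when only peaks covered in all 3 lists were kept and 2 beyond 10000 bp from a TSS. Fas3, an adhesion protein gene, tied with the last of these at 9 and was named after its values were seen. Summits in the plot of host maps were spread along most of fz and Snoo and gathered in the 5′ part of sbb. In fz, 5 of the summits formed a run over 6.62 kb.

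**Figure D3:**
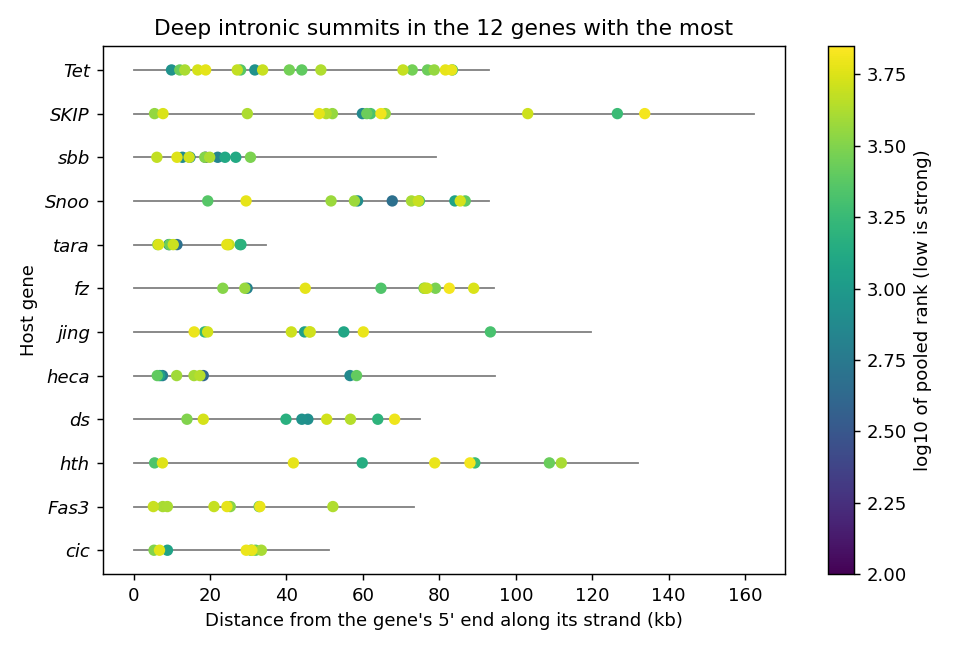
Position of deep intronic summits along the 12 genes with the most, in kb from the gene's 5′ end; grey lines are gene bodies and colour is the log10 of the pooled rank (dark is strong). In sbb the 12 summits lie in the 5′ part of the gene, and in fz and Snoo they are spread along the gene, with a run of 5 in fz.

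Hosts also more often carried a promoter peak. A thresholded promoter peak was present at 130 of the 316 protein-coding hosts (41.1%) and at 217 of the 1077 other genes with deep intronic sequence (20.1%; Fisher's exact test over genes, odds ratio 2.77, adjusted p = 1.67e-12). Among the genes with the most deep intronic sequence, over 17.4 kb, the shares were 41.2% of 165 hosts and 11.96% of 184 others (Fisher's exact test, adjusted p = 1.01e-09). Hosts had a median of 2 TSSs and the others 1, which gives a promoter peak more places, and the part of this was not tested. Among the genes with the least, up to 1.36 kb, only 7 were hosts, and the shares were 14.3% and 19.6% (Fisher's exact test, adjusted p = 1).

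Gene groups were described by the share of their members that hosted a summit among those with deep intronic sequence, read against the background of 22.7%. No test was run on these lists. They were chosen with earlier results of these data known, and the part of that choice in the shares was not tested. Lists of long genes have more room for a summit: of the genes with over 17.4 kb of deep intronic sequence 47.3% were hosts, and the median over all genes was 6.19 kb. In the TGF-beta and BMP list 8 of 11 such genes were hosts, 72.7% in the thresholded list and in each replicate list, with a median of 13.9 kb of deep intronic sequence. Its 29 summits gave 143 per Mb of deep intronic sequence, against 36.0 over all protein-coding genes, among them the gene with 1904.75 kb. The 4 with the strongest peaks were shn, Dad, Snoo and dpp, and the BMP ligand gene dpp held 1 summit of rank 1170 that was present in each replicate. The other 4, named after their values were seen, were cv-2, dlp, tkv and dally. In tkv, which encodes the BMP type I receptor, there were 4 summits in every list, with a best pooled rank of 1659. Actbeta, an Activin-type ligand gene, and babo, the receptor gene upstream of Smox, had deep intronic sequence and no summit, but Actbeta has only 1.075 kb of it, on chromosome 4, and babo 1.95 kb. The tolloid-type protease gene tok, named after its values were seen, held no summit in any list in 18.0 kb. Mad, the BMP branch SMAD gene, had none and could not host.

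Of 13 ecdysone response genes, 9 were hosts (69.2% in every list), with a median of 26.2 kb of deep intronic sequence. Eip75B held 6 summits, with 6, 7 and 7 in the replicates, and Eip74EF and tai 3 each. E23, which encodes an ATP-binding cassette transporter that lowers ecdysone response, held 5, with 4, 5 and 4 in the replicates and a best rank of 622. The receptor gene EcR held no thresholded summit in 31.6 kb of deep intronic sequence, and 1 in the list of replicate 3. The host ftz-f1, named after its values were seen, held 3 thresholded summits and 3, 1 and 0 in the replicates. The equal shares therefore do not stand for the same hosts in every list. The zinc finger gene crol, also of the ecdysone response, held none in only 2.90 kb.

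The lists of other signalling pathways rest on few genes each. In the Hippo list 5 of 6 were hosts, with ds (9 summits, best rank 827), kibra, ft and wts having the strongest peaks. The polarity gene crb held no thresholded summit and 1 in the lists of replicates 2 and 3. The share was 66.7% in each replicate list, with ds and kibra in all 3 and a different choice of ft, wts, app and crb in each. In the Wnt list 7 of 10 were hosts, led by arr, fz, fz2 and dlp, while pan and wg held none, wg in only 1.99 kb. That share was 70%, 70% and 50% in the replicates. In the Notch list 6 of 9 were hosts, with kuz, Delta, mam and Ser leading. There neur and numb were without a summit, neur in only 1.52 kb. The summit in Delta, which encodes a Notch ligand, ranked 748 and was present in each replicate list. In the EGFR and Ras list 4 of 9 were hosts, namely S, aos, pnt and vn, with aop and Egfr without a thresholded one, Egfr holding 1 in the lists of replicates 2 and 3. In the insulin and TOR list 2 of 6 were hosts, InR with a best rank of 978 and REPTOR with 5789. No thresholded summit lay in foxo, which held 1 in replicate 1, or in mTor, which has only 0.074 kb. The replicate shares of this list were 50%, 16.7% and 16.7%, below the background in replicates 2 and 3, and its 35.7 summits per Mb were close to the 36.0 of all genes.

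Transcription factor and chromatin lists varied. BTB-domain factor genes had 5 hosts of 8, led by ab, psq, bab1 and fru. The 7 summits of bab1, a limb patterning gene, were all of modest strength, with a best rank of 2186, and chinmo and lola held none in 27.5 kb and 21.6 kb. In the Polycomb, trithorax and Brahma list 4 of 8 were hosts, namely sbb, Psc, trx and Tet. This list also takes in the corepressor gene sbb and the dioxygenase gene Tet, and these carried most of its 35 summits. Psc held 1 summit and trx 3, so the share and the count say little about the named complexes. The Brahma complex gene osa held no thresholded summit and 1 in the lists of replicates 2 and 3, and Pc held none. Of the Hox, homeodomain and limb genes, 10 of 31 were hosts (32.3%, and 30.1% ± 1.86 in the replicates). They were led by inv, hth, caup and nub, with abd-A and Abd-B among those without, though Abd-B has only 0.03 kb. The Hox gene Antp held 1 summit at rank 6417, near the bottom of the list, present in the limited list of replicate 3 alone.

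The synapse and ion channel list had the lowest share, 3 of 33 (9.09%, and 9.09% ± 3.03 in the replicates), although its genes had a median of 17.3 kb of deep intronic sequence against 6.19 kb for all genes. Its 5 summits gave 8.43 per Mb. The hosts were nAChRalpha6, nAChRalpha5 and Shal, while 5-HT1A, a serotonin receptor gene, held none in 35.4 kb and 5-HT1B none in its short stretch. Axon guidance and neural adhesion genes had 12 hosts of 40 (30.0%) and 31.6 summits per Mb. The strongest were in drl, dnt, haf and robo2, while beat-Ia and CadN2, the latter with 47.9 kb, held none. In the pruning and temporal identity list 6 of 14 were hosts, led by ab, grh, nub and Dscam1, with babo and chinmo among those without. The share was 42.9% in every list, but in replicate 3 EcR was a host and ftz-f1 was not. Muscle genes had 3 hosts of 16 (18.8% in every list), Tsp, Zasp52 and bru1, with bt and kon without, kon in only 0.846 kb. Extracellular matrix genes had 5 of 13, led by Sdc, dlp, Mmp2 and dally, with LanA and Mmp1 without, LanA in only 0.452 kb. Of the 2 clock genes that could host, Pdp1 held 1 summit and cwo none.

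**Figure D4:**
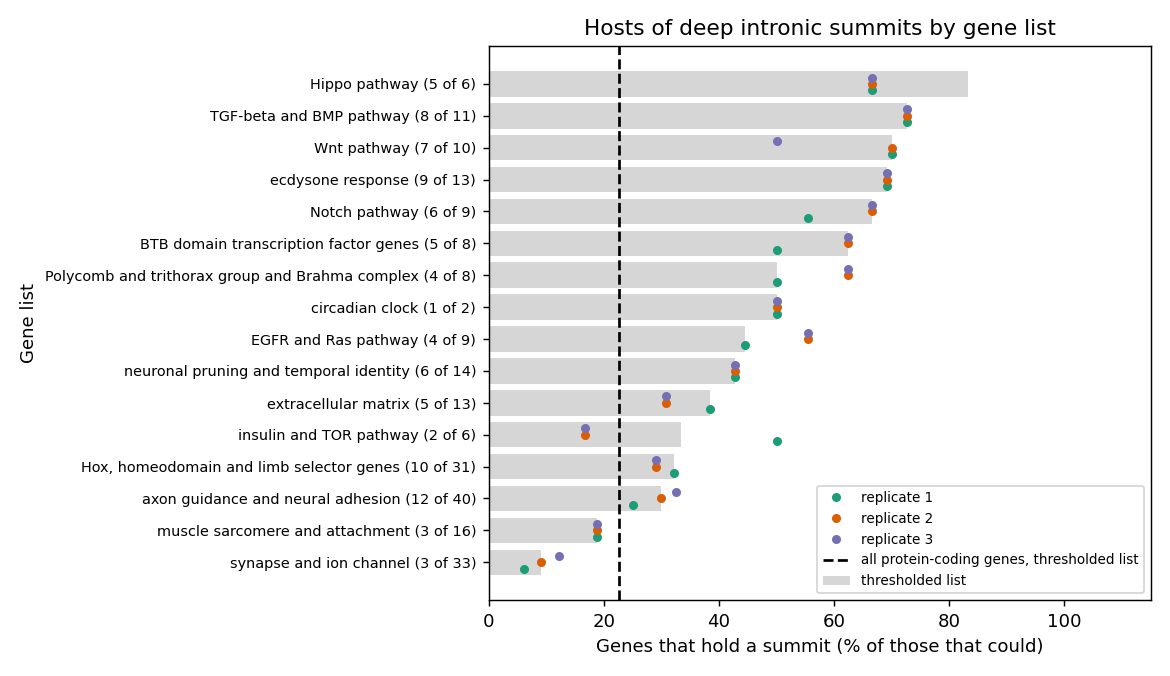
Share of genes with deep intronic sequence that hold a deep intronic summit, by gene list, with counts of hosts in the labels; bars are the thresholded list, points the replicate lists and the dashed line all protein-coding genes (22.7%). The TGF-beta and BMP and the ecdysone lists stay near 70% in every replicate list, and the synapse and ion channel list lies below the line in each. All lists were chosen with earlier results of these data known.

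Summits were poor in GC compared with the sequence beside them. Windows of 75 bp either side of the summits held 32.9% GC, and windows 500 bp to the right of them 43.4%. The replicate lists gave 32.3%, 33.2% and 33.3% at the summits and 43.4%, 43.2% and 43.3% in the flanks, with no overlap. The members resembled other classes in this, since promoter summits had 34.2% GC and distal intergenic summits 31.9%.

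Of 30 short sequence elements counted on both strands, 4 were more frequent at the summits than in the flanks of the same peaks, a share of 13.3%, and 6 were less frequent, a share of 20% (exact McNemar test, Benjamini-Hochberg over 30). TATAAA was present at 34.0% of summits and 13.7% of flanks (exact McNemar test, adjusted p = 6.12e-21), against 18.5% of all deep intronic windows of that length. The A tract AAAAAA was present at 40.9% and 30.1% (exact McNemar test, adjusted p = 0.000125; 28.7% of all windows). The homeodomain core TAATTA, the preferred sequence of many homeodomain proteins, was present at 15.1% and 8.83% (exact McNemar test, adjusted p = 0.0011; 10.6% of all windows). These 3 passed the test in each replicate list, but TAATTA did not pass against flanks at 1000 bp (3.39 points, exact McNemar test, adjusted p = 0.157), and among the 68 members in the strongest 1000 peaks TATAAA alone passed. The Hox-Exd pattern TGATNNAT, at 12.2% and 8.10% (exact McNemar test, adjusted p = 0.0254; 10.2% of all windows), passed in none of them.

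The SMAD box GTCT was less frequent at summits, at 41.0% against 50.8% of flanks (exact McNemar test, adjusted p = 0.000522), and 51.8% of all deep intronic windows held it. In the replicate lists it was present at 39.8%, 41.9% and 41.7% of summits and 50.8%, 52.3% and 51.0% of flanks. The GC-rich Mad pattern GCCGNCGC was present at 0.605% and 2.18% (exact McNemar test, adjusted p = 0.0319; 1.09% of all windows). The other elements that were less frequent were an E-box, the TEAD pattern, a CA repeat and a control string that stands for no factor, GGAGA. The SMAD box, the E-box and the control string were called in each replicate list, the TEAD pattern in replicates 1 and 2, the CA repeat in 1 and 3 and the Mad pattern in 3. This string was present at 12.5% of summits, 19.95% of flanks and 18.1% of all windows. The elements that were more frequent are made of A and T or nearly so, and the base composition differed between summits and flanks as given above. Its part in these differences was not tested.

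Against promoter summits, 3 of 30 elements were less frequent at the members, a share of 10% (two-sided Fisher's exact test, Benjamini-Hochberg over 30). The DRE TATCGATA, known from housekeeping promoters, was present at 0.363% of members and 2.88% of promoter summits (Fisher's exact test, adjusted p = 0.000122; 0.323% of all deep intronic windows). CGATA, the core bound by the insulator protein BEAF-32, was present at 16.7% and 23.2% (Fisher's exact test, adjusted p = 0.0023; 15.4% of all windows), and every DRE contains it. CAGCTG was present at 3.39% and 6.51% (Fisher's exact test, adjusted p = 0.0111; 5.28% of all windows). DRE and CGATA were called in each replicate list and CAGCTG in replicates 2 and 3. The M1BP pattern GGTCACAC was called lower in each replicate list but missed the threshold in the thresholded list, at 0.726% and 2.19% (Fisher's exact test, adjusted p = 0.0627). No element was more frequent at members than at promoter summits, a share of 0%, and the same count was 0 of 30 at an unadjusted p under 0.05. GTCT was present at 41.0% of members and 40.4% of promoter summits (Fisher's exact test, adjusted p = 1).

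Against distal intergenic summits, 0 of 30 elements passed in either direction, a share of 0% (Fisher's exact test), and 0 reached an unadjusted p under 0.05. The largest difference was for CGATA, at 16.7% of members and 12.6% of distal intergenic summits (Fisher's exact test, adjusted p = 0.816). Closeness to other summits did not separate these classes in the test either. Another thresholded summit lay within 5000 bp of 68.3% of members and 67.7% of distal intergenic summits (Fisher's exact test, adjusted p = 0.849).

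**Figure D5:**
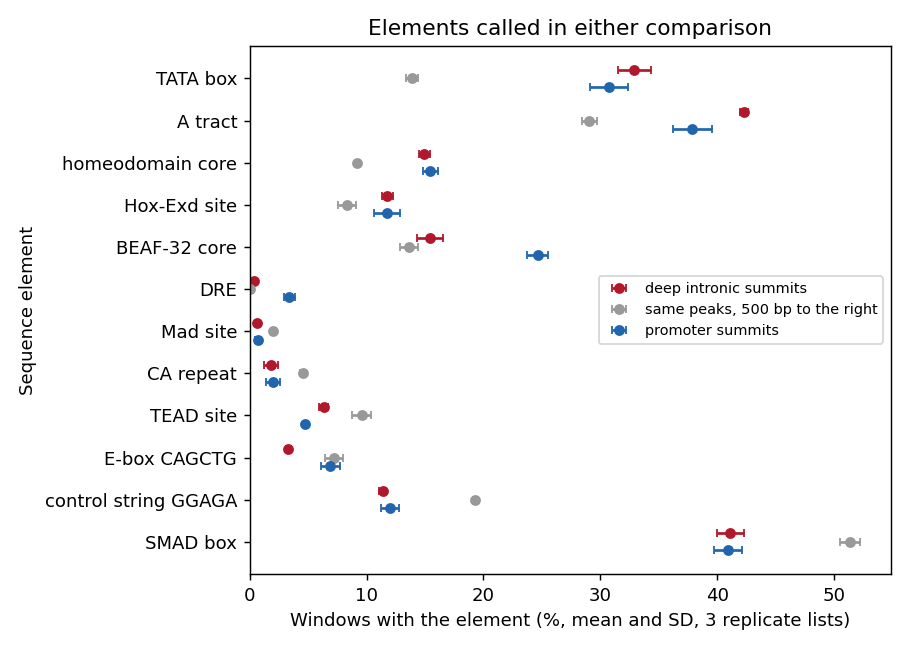
Share of windows (75 bp either side of a summit or flank position) that hold each element called in the comparison with flanks or with promoter summits; points and bars are the mean and SD of 3 replicate lists for deep intronic summits, windows 500 bp to their right, and promoter summits. TATAAA matches (TATA box) lie near 33% at deep intronic summits and 14% in the flanks. The SMAD box lies lower at both kinds of summit than in these flanks of deep intronic peaks. Promoter summits were not compared with flanks of their own.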

How the data were processed

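ChIP-seq region lists of 3 biological replicates of 1 group were analysed on dm6. Per the file listings, the authors called peaks and background regions on each replicate and on the pooled replicates with 1 control alignment, and thresholded them by reproducibility between replicates. For the aligner, the caller and the cutoff the sources used here give no name or value. A deposited line holds a score of the authors' peak caller, with no stated scale, used here for ranking alone, a −log10 q-value, used in another ranking, and a summit offset in bp. Fragments of 200 to 800 bp were taken after sonication, per the labels. Nothing in the lists gives depth, so intervals cover counting error only. The labels call the samples biological replicates, and no label says that they came from separate collections of animals.

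Summits were classed by BDGP6.54 gene models (Ensembl release 115), without transposable elements, and sequences came from RefSeq's Release 6 genome, the same sequence as dm6. A host was the shortest protein-coding gene holding the summit, otherwise the shortest other gene. Replicate lists (30000 regions) were limited to their strongest 6622. Coverage needed 1 bp of overlap. Adjusted p-values are Benjamini-Hochberg values with a threshold of 0.05. All 466 gene list entries were matched, 5 through older symbols; the entries for Delta and mTor were given the annotation's symbols after the data were seen. Members, lists and elements were chosen with earlier results of these data known. Genes named are hosts of the 20 strongest replicated members, the 10 genes with the most summits, up to 4 hosts and 2 other genes per list in alphabetical order, and babo, Mad, EcR, Eip75B, Antp and osa. Added after the data were seen were the comparisons with distal intergenic and nearer intronic peaks (except neighbours), the weakest peaks and width, promoter peaks of hosts, densities in first introns, pairing by replicate list, shares down the pooled list, and dropping overlapping peaks. Other settings covered the TSS distance and set, the peaks used, the ranking, overlap, windows, flanks and each replicate left out. The functions were tested on simulated data: an element planted in windows was called in 20 of 20 sets of 30 elements, with 0 calls where nothing was planted, and 0 of 400 positions were classed wrongly. Both sets of simulated windows were drawn with the same GC, unlike summits and flanks. The simulation therefore cannot tell how often a difference in base composition alone leads to a call. Python 3.11.15, NumPy 2.4.6, pandas 2.3.3, SciPy 1.17.1 and Matplotlib 3.10.9 were used.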

Additional observations from a re-analysis of the deposited data

How the results depend on the processing

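With the replicate block, which pairs the values of 2 classes of sequence by replicate list, the differences in density of 11.4 (deep introns and distal intergenic sequence) and 34.7 summits per Mb (first and later introns) kept their sign in 3 of 3 lists, and 3 pairs cannot pass the threshold. No paired analysis of conditions was possible because the series has 1 group. With limits of 2000 bp and 10000 bp from a TSS the number of summits was 1398 and 382, the number of hosts 519 and 159, the density ratio to other autosomal sequence 0.840 and 0.538 (0.716 at 5000 bp), and the share in the first intron 41.9% and 27.2%. At 10000 bp 43 listed genes were hosts (81 at 5000 bp, of 214 listed genes that could host there). Over all protein-coding genes that could host at 5000 bp the share was 22.7%. The genes that could host change with the limit, and their numbers at other limits are not given here. With TSSs of protein-coding genes only the density ratio was 0.747. Among the strongest 1000 peaks there were 68 members in 58 hosts, 19 of them listed, with a density ratio of 0.366, 30.4% GC and 29.4% in the first intron. There 1 element was higher than in flanks, 0 lower, and 0 lower than at promoter summits. The difference in the share among the strongest peaks was -8.62 points (Fisher's exact test, adjusted p = 0.331), with far fewer peaks tested. With peaks covered in all replicates the density ratio was 0.681 and 1 element was lower than at promoter summits. GC was 31.7% and 34.3% in windows of 50 and 100 bp either side. With flanks at 1000 bp 2 elements were higher and 2 lower. By any transcript, 53.7% lay in the first intron, and first introns of any transcript made up 29.8% of deep intronic sequence. At the limits of 2000 bp and 10000 bp the share of sequence in first introns is not given here. The cause of these shifts was not tested.

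The difference in coverage from other peaks changed sign, without passing, among the strongest 1000 (0.847 points) and with whole replicate lists (0.539 points). That in neighbours, which passed under no setting, changed sign with protein-coding TSSs (-2.97 points), the strongest 1000 (-9.94), covered peaks (-1.50) and distances of 1000 bp (-1.44) and 10000 bp (-0.711). Leaving out each replicate gave coverage differences from -3.22 to -2.40 points. The other values are means over the remaining limited replicate lists, and the thresholded members were not chosen anew. Differences in the share among the strongest peaks were then -8.60 to -7.80 points. These means were 769 to 781 deep intronic summits (777 with all lists), density ratios from 0.651 to 0.667 (0.659) and 312 to 317 hosts (314). GC was 32.8% to 33.3%, listed hosts 77.5 to 79 and the share in the first intron 36.9% to 37.5%. Elements called in every remaining list numbered 3 to 3 (higher than flanks), 3 to 4 (lower) and 3 to 4 (lower than promoter summits). Dropping overlapping peaks left 775 members in 321 hosts and 5 elements lower than in flanks instead of 6. Among single hosts and elements, 80 values stayed within their limits or kept their call, 17 counts of summits per host moved by over 1.5 times (10 of them among the strongest 1000 peaks, where the 10 genes held 0 to 4 each) and 8 element differences no longer passed. Unknown depth limits all comparisons of rank between replicates.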

Other observations

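Of the 321 hosts, 5 were non-coding genes, and they held 10 of the 827 summits. The gene lncRNA:let7C, the primary transcript of let-7, miR-100 and miR-125, the microRNAs of the larval to adult transition, held 4 summits, with 4, 4 and 5 in the replicate lists. All 4 lay in its first intron and were covered in every replicate list. The strongest ranked 766 in the pooled list and 722, 740 and 940 in the replicates. The nearest TSS, 5913 bp away, is annotated for mir-100 within the same transcript, and the nearest TSS of the host lies 9804 bp away. The second strongest, of rank 1404, ranked 1517, 1179 and 1877 in the replicates.

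Of the 827 members, 552 (66.7%) had a width within 1 bp of the most frequent one, so width carries little information on them. Far from TSSs, ds held a member 40659 bp from any TSS that ranked 872, 900 and 868 in the replicates.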
